A study of Mus musculus with 6 samples.

Results

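The genes described here encode 9 integrin subunits of leukocytes and the adhesion receptor Cd44, measured in mouse leukemia cells of the line named MLL-AF10, after the fusion of the genes Kmt2a and Mllt10. They were chosen by name, with earlier results of these data known, as Itgam, Itgax, Itgal, Itgb2, Itga4, Itgb1, Itgb7, Itgav, Itgb5 and Cd44. Each was found through the probe sets of the array annotated to it. All 10 had a probe set with a single gene symbol, out of 19938 genes with a symbol in the table, and none had more than 1 such probe set. Total RNA came from 3 samples of MLL-AF10 cells given vehicle and 3 samples of the same line given 0.5 µM of an IKK inhibitor, all grown in RPMI with serum and WEHI conditioned medium. IKK kinases release NF-kB transcription factors from their IkB inhibitors. The sources used here do not give the identity of the compound, the time of treatment or whether the line is a single clone. Nor do they say that the 3 samples of a group were separate cultures. The p-values therefore reflect the scatter among these samples, and that scatter may be technical.

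Integrins are heterodimers of an alpha and a beta subunit that span the cell membrane and bind ligands on other cells or in the extracellular matrix. The beta2 integrins, which pair Itgb2 (CD18) with Itgal (CD11a), Itgam (CD11b) or Itgax (CD11c), occur on leukocytes, where they mediate firm adhesion, phagocytosis of complement-coated particles and migration. Itga4 pairs with Itgb1 or Itgb7 to bind VCAM-1, fibronectin and MAdCAM-1, and Itgav pairs with Itgb1, Itgb5 and other beta subunits to bind matrix proteins such as vitronectin. Cd44 is the main cell surface receptor for hyaluronan. In the myeloid lineage CD11b is a standard surface marker of monocytes, macrophages and granulocytes.

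With the IKK inhibitor, 5 of the 10 genes were higher than with vehicle, none was lower and 5 did not pass the test (limma, Benjamini-Hochberg adjusted p under 0.05 over 19847 genes). The genes that rose were Itgam, Itgb2, Itgax, Cd44 and Itgav. Over all genes tested 13.9% were called, 7.10% higher and 6.75% lower. Apart from Itgb7 and Itgax, the 10 genes were bright, at percentile 83.3 or above of mean intensity among genes tested. In a fit of the genes above the median intensity, which leaves out Itgax and Itgb7, 6 of these genes were higher. In that fit 3951 genes were called, 1741 of them higher. The part of intensity in the count of 5 was not tested. The 3 arrays of one group lay wholly above those of the other for 7 of the 10, in each case with the inhibitor higher, against 32.9% of all genes in either direction. The median log2 fold change was 0.19 for the 10 genes and 0.01 for all genes tested. At an unadjusted p under 0.05, 7 of the 10 were higher and 0 lower. Counts at this looser threshold, here and for the lists below, have no background of their own and cannot be set against the 13.9%. The share of all genes that pass it was not computed. It exceeds the 13.9% called, as Itgal with an unadjusted limma p of 0.0240 stood at rank 4203 of 19847 by p. The count of 5 fell to 3 when vehicle array 2 or inhibitor array 3 was left out, and to 4 when any of the other arrays was. Over all genes, 1183 to 2810 were called in these fits of fewer samples, against 2749 over all 6 arrays. With median centring 1842 genes were called, 890 of them higher. The counts for the lists below come from the same fits.

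The 6 arrays had median intensities between 112 and 124. Across genes, log2 values correlated at 0.993 to 0.997 between arrays of the same group and at 0.988 to 0.991 between groups. Marker genes of myeloid cells moved with the treatment in the same samples. Of 13 monocyte and macrophage markers tested, CD11b and CD11c left out, 10 were higher and 0 lower. The summed intensity of the 13 ran from 13711 to 14164 with vehicle and from 23412 to 25001 with the inhibitor. The 3 not called, named after their values were seen, were Ccr2 (log2 fold change -0.05), Cx3cr1 (-0.12) and Fcgr1 (0.23). Of 10 neutrophil markers 7 were higher and 0 lower, with sums of 10403 to 10685 and 14318 to 15117. Of 7 markers of granulocyte and monocyte progenitors, among them Mpo, Elane and Kit, 6 were lower, with sums of 16094 to 16765 and 13422 to 13882. The part of these shifts in the integrin and Cd44 results was not tested, and in bulk RNA a change in the share of cells of a kind and a change of RNA per cell cannot be told apart. Among markers of other cell types, 0 of 8 T cell, 0 of 8 dendritic cell, 0 of 3 erythroid and 0 of 9 fibroblast, stromal and endothelial markers were called by limma, and at an unadjusted p under 0.05 these counts were 0, 0, 0 and 1. Of 7 B cell markers 1 was lower, and of 5 megakaryocyte and platelet markers 1 was higher and 1 lower. The summed intensity of T cell markers was 905 to 1016 with vehicle and 851 to 1008 with the inhibitor, of B cell markers 752 to 814 and 696 to 747, and of dendritic cell markers 802 to 844 and 786 to 892. For megakaryocyte and platelet markers it was 577 to 610 and 559 to 593, for erythroid markers 339.6 to 364 and 322 to 361, and for fibroblast, stromal and endothelial markers 950.4 to 1078 and 912 to 1028. The table has no detection calls and holds no value of 0, so none of these markers can be said to be absent.

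The promoter windows of 3 genes that rose, Itgam, Itgax and Cd44, and of Itga4, which did not pass, are shown so that the letters before their transcription starts can be compared. The windows are from RefSeq on GRCm38.p6 and hold 250 bases before and 50 after the start, which gives 300 bases. Such windows were found for 8 of the 10 genes, all but Itgb2 and Itgal. Capitals mark matches on either strand to GAGGAA (a core of sites of PU.1, a transcription factor of myeloid cells), TGANTCA (the AP-1 site), GGGCGG (the GC box) and the NF-kB consensus, and no matches overlap in these windows.
Itgam promoter, GRCm38.p6 chr7:128062390-128062689, plus strand: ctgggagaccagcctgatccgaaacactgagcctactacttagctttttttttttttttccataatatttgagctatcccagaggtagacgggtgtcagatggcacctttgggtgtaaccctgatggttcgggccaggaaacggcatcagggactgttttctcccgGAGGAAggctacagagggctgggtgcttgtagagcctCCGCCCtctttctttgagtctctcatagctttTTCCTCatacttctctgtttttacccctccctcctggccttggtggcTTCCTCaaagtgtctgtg
Itgax promoter, GRCm38.p6 chr7:128129300-128129599, plus strand: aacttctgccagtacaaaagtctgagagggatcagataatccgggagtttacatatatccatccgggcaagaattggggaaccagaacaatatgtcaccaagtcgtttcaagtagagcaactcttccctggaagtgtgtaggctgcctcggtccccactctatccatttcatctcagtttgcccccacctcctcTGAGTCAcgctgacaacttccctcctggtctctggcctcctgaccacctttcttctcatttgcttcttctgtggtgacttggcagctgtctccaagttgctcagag
Cd44 promoter, GRCm38.p6 chr2:102901616-102901915, minus strand: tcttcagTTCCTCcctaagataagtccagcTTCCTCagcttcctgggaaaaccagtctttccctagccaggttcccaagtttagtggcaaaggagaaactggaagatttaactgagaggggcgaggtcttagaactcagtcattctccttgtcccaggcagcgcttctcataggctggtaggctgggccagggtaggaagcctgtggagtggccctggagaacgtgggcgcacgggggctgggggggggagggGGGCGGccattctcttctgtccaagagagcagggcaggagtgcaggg
Itga4 promoter, GRCm38.p6 chr2:79255176-79255475, plus strand: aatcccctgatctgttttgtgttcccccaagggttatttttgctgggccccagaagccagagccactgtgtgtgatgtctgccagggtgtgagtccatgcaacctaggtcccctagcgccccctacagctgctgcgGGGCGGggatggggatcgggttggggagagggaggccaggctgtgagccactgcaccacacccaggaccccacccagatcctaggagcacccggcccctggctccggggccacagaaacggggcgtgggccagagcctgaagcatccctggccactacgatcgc
The window of Itgam held 3 matches to GAGGAA and 1 GC box. That of Itgax held 1 AP-1 match and none of the other motifs, and that of Cd44 held 2 matches to GAGGAA and 1 GC box. The window of Itga4 held 1 GC box. Of the 8 windows, 5 held GAGGAA, 1 an AP-1 match and 6 a GC box, where the shares over all 32851 promoter windows were 28.3%, 7.81% and 35.7%. The 5 with GAGGAA were those of Itgam, Itgav and Cd44, which were called, and of Itgb1 and Itgb7, which were not. The NF-kB consensus was found in 0 of the 8 and in 8.46% of all windows. A match is a string of letters and not a measured binding site, and the lack of one applies to these 300 bases alone.

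The largest change among the 10 genes was that of Itgam, the alpha subunit of complement receptor 3. Its intensity was 1423, 1448 and 1468 on the vehicle arrays and 2263, 2312 and 2427 on the inhibitor arrays. Every inhibitor array lay above every vehicle array, and the gap between the groups was several times the range within either. The means were 1446 ± 22.1 and 2334 ± 83.9 (SD, n = 3 each). On the log2 scale the inhibitor mean was higher by 0.69 ± 0.05 (SE; 95% interval 0.57 to 0.81), or 1.61-fold. The adjusted p by limma was 0.000406, which placed Itgam at rank 148 of 19847 genes by p. A further 3 probe sets were annotated to both Itgam and the ribosomal protein gene Rpl35. They were left out of gene results as ambiguous and read between 3242 and 3618 with vehicle and between 3154 and 3486 with the inhibitor, so they overlapped between the groups and did not show the difference of the probe set specific to Itgam.

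Itgb2, the beta subunit that Itgam, Itgax and Itgal share, rose less than Itgam. It read 2519, 2526 and 2557 with vehicle and 3367, 3376 and 3430.1 with the inhibitor. The groups did not overlap, and the arrays of each group lay close together. The log2 fold change was 0.42 ± 0.04 (SE; 95% interval 0.32 to 0.53), or 1.34-fold, with a limma adjusted p of 0.00193. Calls of Itgam and Itgb2 held in all 13 other processing settings and all 6 settings that left out an array.

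Itgax, the alpha subunit of complement receptor 4 and a common marker of dendritic cells that macrophages also carry, was measured at low intensity. Its values were 144, 134 and 122 with vehicle and 169, 177 and 185 with the inhibitor. All 3 inhibitor arrays were above the 3 vehicle arrays, with a gap between the groups of about the size of the spread within them. The log2 fold change was 0.41 ± 0.07 (SE; 95% interval 0.23 to 0.59), with a limma adjusted p of 0.0148. Leaving out vehicle array 2 ended the call (adjusted p = 0.0614), as did leaving out inhibitor array 3 (0.0537). The log2 fold change was 0.41 without vehicle array 2 and 0.38 without inhibitor array 3, in fits with fewer samples.

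Itgal, the alpha subunit of LFA-1, which binds ICAM proteins, did not pass the test. Its intensity was 985, 1008 and 1011 with vehicle and 1082, 1141 and 1087 with the inhibitor. The groups did not overlap, but the difference was small, at 0.14 on the log2 scale (95% interval 0.02 to 0.25), with a limma adjusted p of 0.113. It was called higher in 2 of 13 other settings, among genes above the median intensity (adjusted p = 0.0268) and with an intensity trend and robust prior (0.0196), and in 0 of 6 that left out an array.

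Cd44 rose by 0.34 ± 0.05 on the log2 scale (SE; 95% interval 0.23 to 0.44), or 1.26-fold, with a limma adjusted p of 0.00535. It read 1755, 1802 and 1745 with vehicle and 2231, 2199 and 2262 with the inhibitor. The lowest inhibitor array lay well above the highest vehicle array. The call of Cd44 held in all 13 other settings and in all 6 that left out an array, with a highest adjusted p of 0.0321 among the 6. Cd44 transcripts are known to be spliced in many forms, and a single probe set gives one value for them all.

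The subunits of alpha4 integrins gave no call over all 6 arrays. Itga4, which helps leukocytes attach to inflamed vessels and progenitors stay in the marrow, read 1292, 1259 and 1209 with vehicle and 1208, 1256 and 1317 with the inhibitor. The groups overlapped throughout, and the log2 fold change was 0.01 (95% interval -0.12 to 0.14). Itgb7, the partner in the gut homing receptor, was dim, at 83.7, 79.6 and 68.5 with vehicle and 76.9, 65.6 and 76.3 with the inhibitor. Its groups overlapped too, and its interval was wider, around a log2 difference of -0.08 (-0.31 to 0.15). The limma adjusted p was 0.957 for Itga4 and 0.673 for Itgb7.

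Itgb1, the beta subunit shared by receptors for fibronectin, collagen and laminin, lay just outside the threshold. It read 1448, 1393 and 1447 with vehicle and 1583, 1616 and 1684 with the inhibitor. The groups did not overlap, and the log2 fold change was 0.19 ± 0.05 (SE; 95% interval 0.07 to 0.31), with a limma adjusted p of 0.0525. It was called higher in 7 of 13 other settings and in 0 of 6 that left out an array.

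Itgav, the alpha subunit of the vitronectin receptors, lay just inside it. Its intensity was 802, 826 and 824 with vehicle and 966, 926 and 911 with the inhibitor. The groups did not overlap, and the log2 fold change was 0.19 ± 0.05 (SE; 95% interval 0.08 to 0.31), close to that of Itgb1, with a limma adjusted p of 0.0446. The call was lost when any array was left out (adjusted p between 0.0627 and 0.151) and with median centring of the arrays (0.289). With an array left out, and so with fewer samples, the log2 fold change ran from 0.17 to 0.21.

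Itgb5, which pairs with Itgav in a vitronectin receptor that also takes part in the uptake of dying cells, read 1069, 1159.8 and 1036 with vehicle and 1089.6, 1029 and 1088 with the inhibitor. The groups overlapped, with vehicle array 2 the highest of the 6. The log2 fold change was -0.02 (95% interval -0.17 to 0.12) and the limma adjusted p 0.852.

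**Figure D1:**
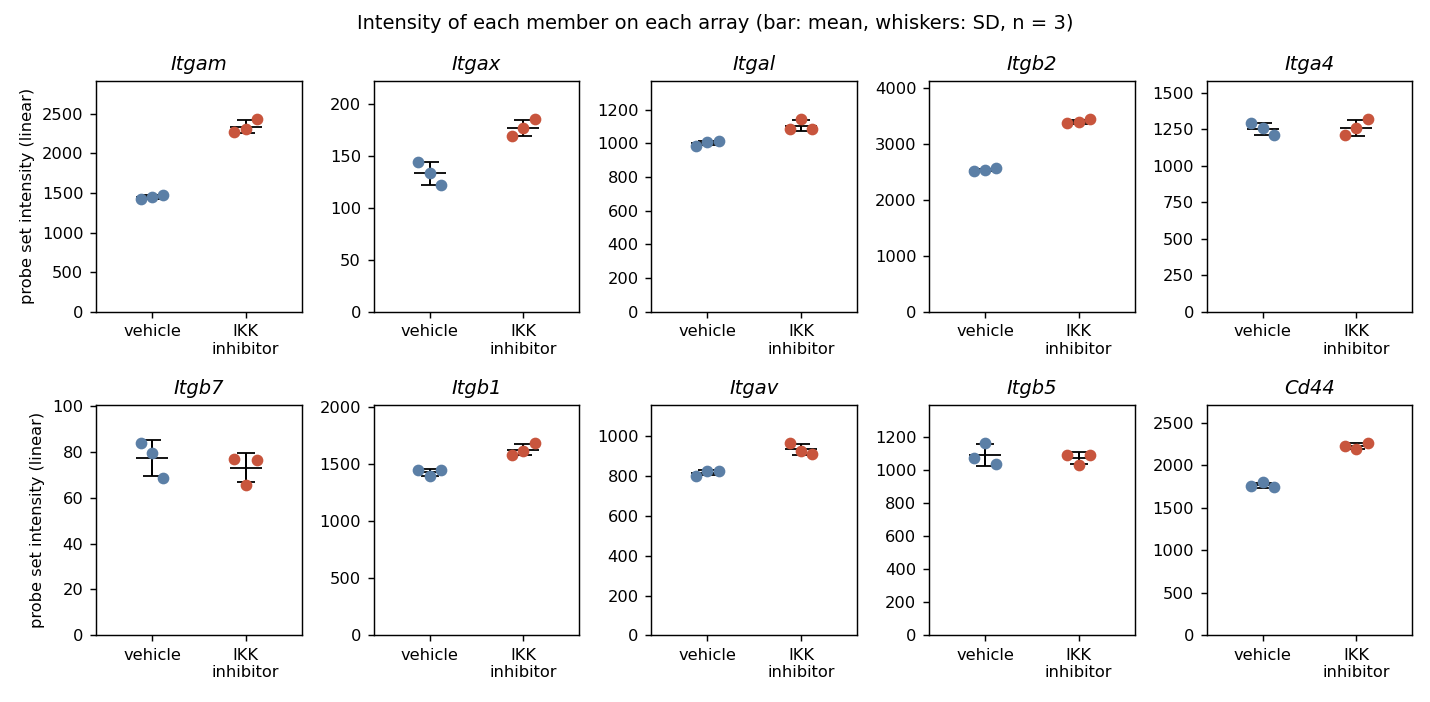
Intensity of the 10 genes on each of the 6 arrays, on linear axes that start at 0, with points for arrays (blue vehicle, red IKK inhibitor), a bar for the mean and whiskers for the SD (n = 3). The groups are apart for Itgam, Itgax, Itgal, Itgb2, Itgb1, Itgav and Cd44 and overlap for Itga4, Itgb7 and Itgb5.

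**Figure D2:**
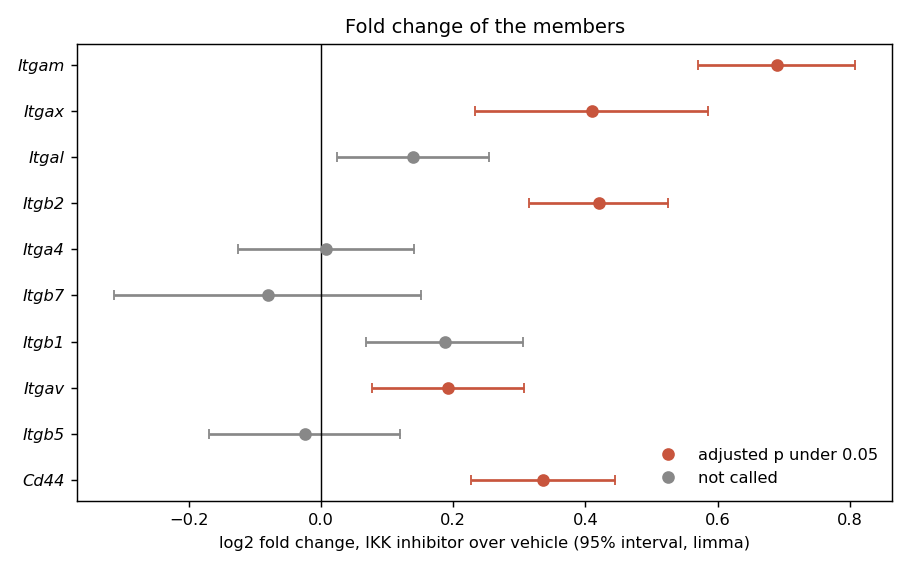
Log2 fold change of each gene, IKK inhibitor over vehicle, with its 95% interval from limma, in red where the adjusted p was under 0.05. Itgam has the highest value at 0.69, and the intervals of Itga4, Itgb7 and Itgb5 include 0.

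The next comparison asked whether the subunits of a known heterodimer changed by unequal amounts, from the log2 ratio of the pair on each array. The ratio compares the 2 probe sets and not the amount of either protein. For 4 of 7 pairs the ratio did not overlap between the groups, and the exact permutation test over samples gave p = 0.1, the smallest that 3 arrays against 3 allow, so no pair can pass 0.05. Adjusted over the 7 pairs this became 0.175. Single genes did not overlap in 32.9% of cases, and the share over pairs of genes was not computed, so the count of 4 has no background of its own.

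For Itgam over Itgb2 the log2 ratio was -0.82, -0.80 and -0.80 with vehicle and -0.57, -0.55 and -0.50 with the inhibitor, a difference in means of 0.27. For Itgal over the same partner it was -1.35, -1.32 and -1.34 with vehicle and -1.64, -1.57 and -1.66 with the inhibitor, a difference of -0.28. The ratio of Itgax to Itgb2 differed by -0.01 and overlapped between the groups (exact permutation p = 0.9). With the inhibitor the ratio was thus higher on all 3 arrays for Itgam and lower on all 3 for Itgal, neither of which could pass the test.

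The ratio of Itga4 to Itgb1 differed by -0.18 between the groups, without overlap of the groups, and that of Itga4 to Itgb7 by 0.09, with overlap (exact permutation p = 0.6). For Itgav over Itgb5 the difference was 0.22, without overlap. For Itgav over Itgb1 it was 0.00496, and the groups overlapped (exact permutation p = 0.9).

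**Figure D3:**
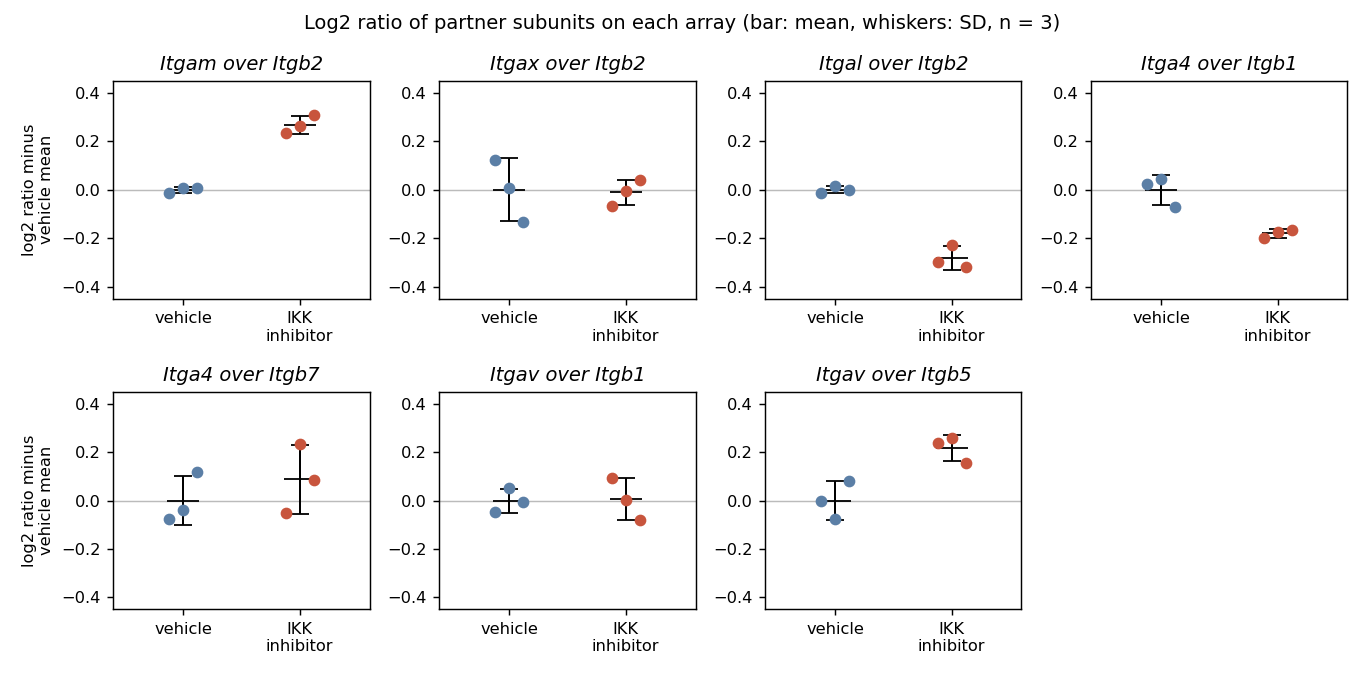
Log2 ratio of the 2 subunits of each pair on each array, less the mean of the vehicle arrays, so that vehicle lies around 0 (points for arrays, bar for the mean, whiskers for the SD, n = 3). The groups are apart for Itgam over Itgb2, Itgal over Itgb2, Itga4 over Itgb1 and Itgav over Itgb5.

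The other integrin subunits of the array gave no call. Of 18 tested, 13 alpha and 5 beta, 0 were higher and 0 lower by limma, and at an unadjusted p under 0.05 there were 3 higher and 0 lower. The 3 were Itga5, the alpha subunit of the fibronectin receptor (log2 fold change 0.18, adjusted p = 0.0700), Itga1 (0.26, adjusted p = 0.119) and Itgb3 (0.20, adjusted p = 0.183), named after their values were seen. The groups did not overlap in 3 of the 18, which were Itga5, Itga1 and Itgbl1, against 32.9% of all genes in either direction. Itgbl1 too was named after its value was seen, and the groups of Itgb3 overlapped. The median log2 fold change of the 18 was 0.06, and values ran from -0.11 to 0.26. In other settings, 1 alpha subunit was called higher with a floor of 64 and 2 among genes above the median intensity. Whether these 18 differ as a group from the 10 was not tested, and neither was the part of their low intensity.

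Ligands of the integrins and of Cd44 gave 1 higher and 1 lower call among 25 tested, with a median log2 fold change of 0.04. Both are counter-receptors of beta2 integrins. Icam1, which is induced on activated cells, rose by 0.48 ± 0.06 (SE) on the log2 scale, from a mean intensity of 474 to 660.2, with a limma adjusted p of 0.00492. Icam2, which is present on resting leukocytes and endothelium, fell by 0.44 ± 0.05 (SE) on the log2 scale, from 255 to 188, with an adjusted p of 0.00249. Both calls held in the 13 other processing settings and the 6 that left out an array.

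Genes that act on integrins from inside the cell included 7 higher and 0 lower of 23, with a median log2 fold change of 0.13. At an unadjusted p under 0.05 there were 10 higher and 1 lower. Fyb, the adaptor ADAP that couples receptor signals to integrin activation, rose by 0.54 ± 0.05, and Rasgrp4, an exchange factor for Ras proteins in myeloid cells, by 0.53 ± 0.07 (SE), and both calls held in the 13 other and the 6 leave-out settings. Cyth1 (0.28), whose product binds the tail of Itgb2, and Flna (0.30), which links integrin tails to actin, were also higher, each called in 3 of the 6 settings that left out an array. The count of 7 fell to 2 when vehicle array 1 or 2 was left out, 3 when vehicle array 3 or inhibitor array 1 was and 4 when inhibitor array 3 was, and was 2 with median centring of the arrays.

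Genes of the signalling and cytoskeletal complex that forms on bound integrins included 8 higher and 1 lower of 26, with a median of 0.10. Fgr, a Src family kinase of myeloid cells that acts downstream of beta2 integrins, rose by 1.09 ± 0.05 (SE) on the log2 scale, from a mean intensity of 129 to 273, with a limma adjusted p of 8.68e-05, and its call held in all 13 other and all 6 leave-out settings. The focal adhesion kinase homologue Ptk2b (0.33), the signalling adaptor Fcer1g (0.26) and the actin regulator Zyx (0.23) were also higher, called in 5, 2 and 2 of the 6 settings that left out an array. The single lower gene, named after its value was seen, was Parvb (-0.20, adjusted p = 0.0476). The higher calls numbered 2 when vehicle array 1, vehicle array 3 or inhibitor array 1 was left out, 1 when vehicle array 2 was and 5 when inhibitor array 3 was, and leaving out any of the 6 arrays left 0 lower. With median centring 1 was higher and 0 lower.

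Among partners of Cd44, enzymes and receptors that handle hyaluronan, selectins and proteases that shed surface proteins, 3 of 18 were higher and 0 lower, with a median of 0.04. At an unadjusted p under 0.05 there were 3 higher and 1 lower. Mmp9, a matrix protease that docks on Cd44, rose by 1.45 ± 0.09 (SE) on the log2 scale, from 236 to 648, with a limma adjusted p of 0.00023, and was called in all 13 other and all 6 leave-out settings. The scavenger receptor gene Stab1 (0.27), with a mean intensity of 118 with vehicle and 143 with the inhibitor, lost its call with quantile normalization and with median centring. It was called in 5 of the 6 settings that left out an array. The sheddase gene Adam17 (0.20) was called in none of the 6, where its highest adjusted p was 0.106. The count of 3 fell to 1 without inhibitor array 1 and with median centring.

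Of 12 genes for leukocyte tetraspanins, Cd47 and related membrane partners of integrins, 5 were higher and 0 lower, with a median of 0.09 and the same counts at an unadjusted p under 0.05. The tetraspanin gene Cd9 rose by 1.35 ± 0.10 (SE) on the log2 scale, from a mean intensity of 157 to 399, with a limma adjusted p of 0.000441. Cd36, a scavenger receptor, rose by 0.79 from a dim 40.5 and lost its call when the floor was raised to 64 (adjusted p = 0.183). Cd63 (0.37), a tetraspanin of late endosomes, and Cd82 (0.29) were called in 3 and 4 of the 6 settings that left out an array. The count of 5 fell to 3 when vehicle array 1, vehicle array 2 or inhibitor array 1 was left out, to 2 when vehicle array 3 was, and to 3 with median centring.

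Over these lists together, 24 of 122 other adhesion genes were higher and 2 lower, against the 7.10% and 6.75% of all genes tested. The lists, like the 10 genes, were chosen with earlier results of these data known. Leaving out vehicle arrays 1, 2 and 3 in turn gave 10, 9 and 10 higher calls, leaving out inhibitor array 1 gave 10, and leaving out inhibitor array 3 gave 16. The lower calls numbered 1 in each of these settings except without inhibitor array 1, where they were 2, both among the ligands. With median centring 8 were higher and 1 lower. The summed intensity of monocyte and macrophage markers, given above, moved in the same direction as these calls, and its part in them was not tested.

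**Figure D4:**
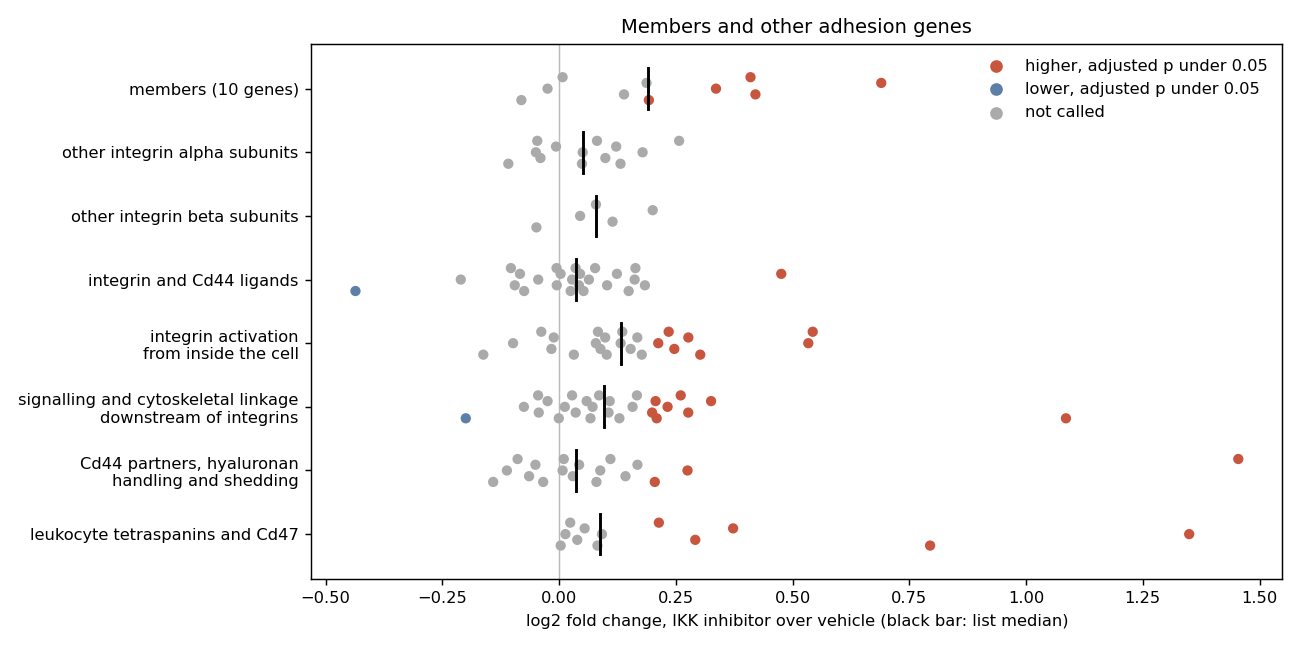
Log2 fold change, IKK inhibitor over vehicle, of the 10 genes and of the other adhesion genes by list, with a point for each gene and a black bar for the list median. The members have a median of 0.19, and none of the 18 other integrin subunits is coloured as called.

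Itgam and Itgax are neighbours in the genome, with the related gene Itgad after them, in the order of measured genes on chromosome 7 in RefSeq on GRCm38.p6. Itgad read 247, 214 and 205 with vehicle and 262, 202 and 243 with the inhibitor. Its groups overlapped, with a log2 fold change of 0.08 (95% interval -0.19 to 0.35), while Itgam and Itgax rose. Of the measured genes on either side, Pycard had a log2 fold change of 0.21 (limma adjusted p = 0.0488) and Trim72 0.12 (0.568) before the cluster, and Cox6a2 -0.33 (0.0108) and 9130023H24Rik 0.08 (0.441) after it. The genes next to the cluster thus included calls in both directions.

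The genes whose log2 values followed Itgam most closely over the 6 arrays, out of 16104 with a mean intensity of at least 64, were Stfa3, Trappc11, Adgre1, Esd and Gpr137b-ps, with Pearson correlations of 0.9997, 0.9996, 0.9996, 0.9995 and 0.9995. With 6 arrays in 2 groups such values rest on the group difference that these genes share with Itgam and are given as a description. Their own log2 fold changes were 1.37, 0.18, 1.43, 0.52 and 1.84, so the likeness lies in the order and spacing of the arrays and not in the size of the change. Adgre1 encodes the macrophage antigen F4/80, and Stfa3 a stefin, an inhibitor of cysteine proteases.

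**Figure D5:**
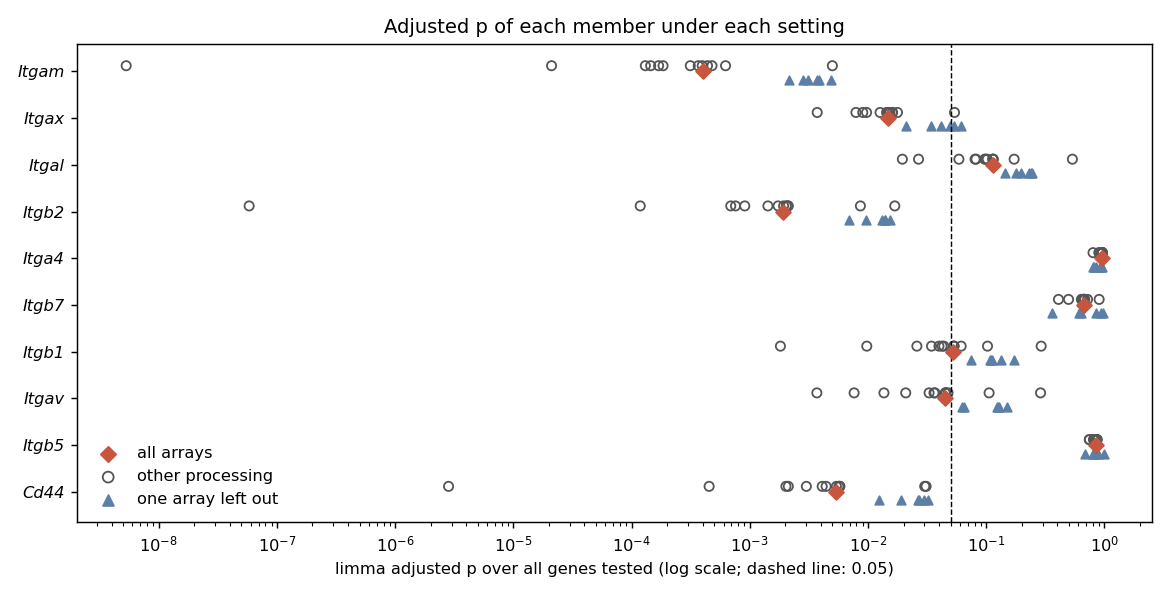
Adjusted p of each gene from limma, on a log axis, over all arrays (red diamond), in other processing settings (open circles) and with one array left out (blue triangles), with the threshold of 0.05 dashed. Itgam, Itgb2 and Cd44 stay below the threshold in every setting shown, and the triangles of Itgav, Itgal and Itgb1 lie above it.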

How the data were processed

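Biotinylated sense-strand targets were made from total RNA and read on whole-transcript Affymetrix arrays, per the labels' protocols. The deposited intensity values are the authors' own, and the submitters' processing notes name Affymetrix Expression Console. The sources used here give no version, algorithm or normalization for it. Values ran from 0.71 to 8185.74 and were read as linear. They were not rescaled. Values under 16 (5.94% of all) were set to 16 and log2 was taken, which understates changes of dim genes.

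Of 35512 probe sets, 21789 had 1 symbol in the platform's annotation, 1621 had several and 12102 were not listed; symbols were updated by Entrez number for 21698. The probe set with the highest mean stood for a gene. Leaving out 91 genes that never exceeded the floor left 19847 for testing. Groups came from the treatment label and replicate numbers from the titles. Limma 3.58.1 in R 4.3.3 (lmFit, eBayes, no covariates, 2-sided) compared inhibitor with vehicle, with Benjamini-Hochberg adjustment over all genes and a threshold of 0.05; the fit was tested on simulated data. Partner ratios were tested by a 2-sided exact permutation over samples. The precision is limited by the number of arrays.

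The 10 members and the lists were chosen with earlier results of these data known. Named genes were the members, up to 4 called genes of each adhesion list with the smallest p, the neighbours of Itgam and the 5 genes most like the member with the smallest p; any other is said to be named after its value was seen. Of 133 listed adhesion genes, 122 were tested; the other 11 and the listed markers beyond those tested are not analysed here. The alternatives were the replicate block, 2 scalings, 4 treatments of low values, 2 filters, 2 uses of probe sets, another prior, array weights, a stricter threshold and leaving out each array.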

Additional observations from a re-analysis of the deposited data

How the results depend on the processing

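Over all 6 arrays 5 of the 10 genes were higher and 0 lower, 24 other adhesion genes were higher and 2 lower, and 2749 genes were called in all. The titles number the samples 1 to 3 in both groups, but same-numbered samples did not deviate together in every pair (correlations 0.24, 0.13 and -0.09), so the numbers are not taken as pairs, and not every sample correlated best with its own number. With a replicate block, the counts were 3 members higher, 11 and 1 other adhesion genes and 1679 genes; Itgax (adjusted p = 0.054) and Itgav (0.106) lost their calls. Median centring gave 4 members higher, 8 and 1 other adhesion genes and 1842 genes. An intensity trend with a robust prior gave 7 members and 40 other adhesion genes higher and 4199 genes, and array weights 6 members higher and 4334 genes. Members higher also numbered 6 with floors of 32 and 64, log2 of intensity plus 16, genes above the median intensity and no filter. An adjusted p under 0.01 left 3 members, 7 and 1 other adhesion genes and 984 genes. Leaving out each array in turn gave 3 to 4 members higher, 0 lower, 9 to 21 and 1 to 2 other adhesion genes and 1183 to 2810 genes; fewer samples were fitted there. The cause of the other shifts was not tested. Values near 0 changed sign. The log2 fold change of Itga4 was -0.0263 with median centring and -0.0203 with array weights. With an array left out it ran from -0.0248 to 0.0375, that of Itgb5 from -0.0595 to 0.0220, the log2 ratio of Itgax over Itgb2 from -0.0776 to 0.0521 and that of Itgav over Itgb1 from -0.0388 to 0.0477. The median log2 fold change of all genes was -0.0191 with quantile normalization and -0.0274 with median centring. Signal over background is unknown without detection calls, and Itgb7 and Itgax were the dimmest of the 10.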
